A study of Mus musculus with 12 samples.

Results

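The methylation of 50 imprinted genes was followed in mouse spermatozoa on their way from the testis through the caput, corpus and cauda epididymidis. The genes are members of 21 known imprinted loci of the mouse, and every CpG site of the deposited count table that lay in the body of one of them or within 5 kb on either side was kept. These windows held 30 of the 14149 sites, and 16 of the 50 genes had at least 1. In the whole table, 7238 annotated genes had a site in a window of the same width.

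Genomic imprinting is the expression of a gene from the copy of one parent. It rests on germline differentially methylated regions (DMRs), which are methylated in the sperm or in the oocyte and keep that difference in the embryo. Most germline DMRs are methylated in the oocyte, so a mature spermatozoon carries little methylation there, while the few paternal ones, such as the control region upstream of H19, are methylated in male germ cells before birth. Cells of the body carry one copy of each kind and read at an intermediate level at both.

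Spermatozoa were taken from the testis and from the 3 segments of the epididymis, the duct in which they become motile and are stored. Their methylation was measured by reduced representation bisulfite sequencing (RRBS), which reads short restriction fragments rich in CpG. The question was whether sperm methylation changes after the testis. All 12 samples came from untreated B6D2F1 mice aged 10 to 12 weeks that carry the transgene RBGS002Osb, made of CAG/su9-DsRed2 and Acr3-EGFP, with 3 samples of testicular, 3 of caput, 3 of corpus and 3 of cauda spermatozoa. In this line the CAG promoter, active in most cell types, drives a red protein sent to mitochondria, and an acrosin promoter drives a green protein of the acrosome. In sorting by fluorescence, cells positive for both colours were kept, and by the study's methods the sperm of several mice were pooled. Those methods describe sorting for the testis, caput and corpus, whose tissue was first cut into pieces. Cauda spermatozoa were flushed out of the duct, so the cauda and this way of collection cannot be told apart. The labels do not say whether the samples are separate pools, so p-values over samples measure the spread between these samples and not between animals.

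Methylation is given as the percent of reads at a site that kept their cytosine, with its coverage in reads. No site of the table has a coverage under 10 in any sample. Summed over sites, testicular replicates 1, 2 and 3 had 945451, 1007992 and 879218 reads, and the caput replicates 643941, 869129 and 706411. The corpus replicates had 429606, 848746 and 616626, and those of the cauda 784708, 679576 and 765781. Over the 30 imprinted sites, a sample had between 863 reads (corpus replicate 1) and 2017 reads (testicular replicate 2). Intervals are 95% Wilson intervals for single samples, an upper limit at 0% is the share that 3 reads would make, and both cover counting error only, since amplified reads are not independent molecules.

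One library stood apart. Averaged over all 14149 sites, caput replicate 1 differed from the mean of the other caput samples by 12.4 percentage points in absolute value, against 8.41 and 9.24 points for caput replicates 2 and 3. The same distance was between 4.09 and 4.96 points in testicular and cauda samples, and 8.28, 6.90 and 7.29 points in corpus replicates 1, 2 and 3. At the 30 imprinted sites it was 16.8 points for caput replicate 1. The authors' list of caput sites rests on replicates 2 and 3, and so does their corpus list, so results in both segments are also given without replicate 1.

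The samples are labelled as spermatozoa, and levels were read at loci with a germline DMR, a region whose level in male germ cells is known. At the H19 site, in a paternally methylated locus, all 12 samples were between 87.1 and 98.9%. It lies outside the control region to which the known level belongs, so this site cannot check the label. The 7 sites at promoters that hold a maternal germline DMR, all in the Mcts2 and Zrsr1 loci, averaged 0, 0.733 and 7.54% in the testicular and 0, 0 and 3.67% in the cauda replicates. In caput they averaged 44.5, 9.70 and 13.8%, and in corpus 0, 8.46 and 9.66%. Testis and cauda thus had the low level known of spermatozoa. All caput samples and corpus replicates 2 and 3 lay above every testicular sample, caput replicate 1 by the most. Caput replicate 2 and corpus replicates 2 and 3 lay little above testicular replicate 3. By locus, the caput replicates averaged 68.2, 22.6 and 16.9% at Mcts2 and 26.8, 0 and 11.4% at Zrsr1. The corpus replicates averaged 0, 9.20 and 0% at Mcts2 and 0, 7.91 and 16.9% at Zrsr1. Testicular replicate 3 averaged 5.61% at Mcts2 and 8.99% at Zrsr1. Coverage at these sites went down to 12 reads.

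A second set of markers was the promoters of 28 germline genes, which are unmethylated in male germ cells and methylated in most cells of the body. Within 2 kb of their starts, 4 of the 28 genes had sites, 11 in all. D1Pas1, which holds 3 of these sites, was also picked by the authors, from the genes that changed in caput, for measurement by another method. It is therefore not an independent marker. Their mean was 6.58, 4.22 and 5.63% in testicular and 4.38, 5.08 and 5.52% in cauda replicates. It was 86.2, 50.7 and 57.4% in caput and 24.5, 38.9 and 16.7% in corpus replicates, so no caput or corpus sample reached down to the testicular range. All 4 genes were higher in caput by group mean: D1Pas1, an RNA helicase of the testis, was at 0% in all 3 testicular samples and averaged 69.9% in caput, Dazl, an RNA-binding protein of germ cells, averaged 5.25% in testis and 62.5% in caput, Tex101, a germ cell membrane protein, averaged 1.33 and 58.6%, and Tex14, a protein of the bridges between germ cells, averaged 13.9 and 66%. In corpus, D1Pas1 was at 0% in replicate 3, and Tex14 was at 15.3% in replicate 1, within the testicular range. All 11 sites were called higher in caput by the read-based test described below, and 10 without replicate 1, where 11.5 and 8.47% of the whole table were called higher. The test of edgeR, which uses the spread between samples, called 0 and had 10 at an unadjusted p under 0.05, against 15.9% of the table. In corpus 5 were called, all higher and all in D1Pas1 and Tex101, and 5 without replicate 1, where 2.69 and 3.31% of the table were called higher, and edgeR called 0 with 6 at an unadjusted p under 0.05, against 7.53%. In cauda 0 were called, against 0.233%, and edgeR had 0 at an unadjusted p under 0.05, against 2.93%. At these markers the mean of every caput and corpus sample lay above the level known of spermatozoa. The part of other cells in the caput and corpus values was not tested here. The paper examined the purity of the spermatozoa and the effect of DNase on caput spermatozoa in other assays, which were not used here.

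Of the 50 genes, 34 had no site. Those of paternally methylated loci without a site were Meg3, Dlk1, Rtl1, Rian, Mirg and Dio3, which together are the Dlk1-Dio3 locus. Those of maternally methylated loci were Kcnq1, Kcnq1ot1, Cdkn1c, Phlda2, Ascl2, Grb10, Ddc, Peg3, Usp29, Sgce, Mest, Copg2, Nap1l5, Herc3, Plagl1, Snrpn, Ndn, Magel2, Mkrn3, Ube3a, Inpp5f, Impact, Igf2r, Airn, Slc22a3, Peg13, Kcnk9 and Slc38a4. Of the 17 genes whose promoter holds a germline DMR, 2 had a site at that promoter. The 30 sites thus lie in 11 of the 21 loci and mostly outside the germline DMRs themselves. By the germline DMR of their locus, 8 sites of 4 genes were grouped as paternal and 22 sites of 12 genes as maternal. The level of the site itself did not enter. Each group holds sites low in the testis (as in Igf2 or Mcts2) and high there (as in H19 or Trappc9). A group mean is therefore not the level of the germline DMRs.

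A logistic regression on pooled reads compared each segment with the testis, site by site over the whole table. A site was called where the p adjusted by the Benjamini-Hochberg method over all 14149 sites was under 0.01 and the pooled percentages differed by more than 25 points. This test counts reads and leaves out the spread between samples, so the value of every sample, an exact two-sided permutation test over samples and edgeR's quasi-likelihood test stand beside it. With 3 samples against 3, the permutation test cannot give a p under 0.1. The 3 comparisons share the same testicular samples.

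In caput spermatozoa, 5 of the 30 imprinted sites were called, all of them higher than in the testis and all in maternally methylated loci. Of all sites of the table, 16.8% were called, 11.5% as higher, and without caput replicate 1 8.47% were called as higher. The 5 sites belong to the windows of 5 genes in 3 loci, namely Mcts2 with H13, Gnas with Nespas, and Peg12. Without caput replicate 1 the Gnas site alone was called, against 11.9% of the table, without caput replicate 2 the count was 8 (19% of the table), and without testicular replicate 1 it was 2 (16.9% of the table). edgeR called 0 of the 30, against 0.304% of the table, with 8 at an unadjusted p under 0.05 (15.9% of the table), and limma likewise called 0, with 8 under 0.05 (17.9% of the table). A difference above 40 points left 0 calls (8.76% of the table), and at least 20 reads in every sample left 2 of 20 sites (17% of such sites). With windows of 20 kb 11 of 37 sites were called (16.8% of the table), and those near Mest were lower in caput.

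In corpus 0 of the 30 sites were called, with a background of 3.96%, and without corpus replicate 1 also 0, with a background of 4.48%. edgeR called 0 there (background 0%), with 3 sites at an unadjusted p under 0.05 (7.53% of the table), and limma called 0 with 1 such site (9.01%). The logistic regression had 11 such sites of 30, where 36.8% of the table had such a p. In cauda 0 were called, with a background of 0.233%. edgeR called 0 in cauda as well (background 0%) and had 0 at an unadjusted p under 0.05 (2.93% of the table), limma called 0 with 1 such site (4.06%), and the logistic regression had 8 (22.7%). Whether caput differed from corpus or cauda at these sites was not tested.

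At 8 of the 30 sites all 3 caput samples lay above all 3 testicular samples, where 14.2% of the table did so. At 0 sites did they lie below, where 8.01% of the table did. Without caput replicate 1 the same 8 sites lay above, where 16% of the table did, and 1 lay below, where 10% of the table did: the Trappc9 site at chr15:72968660. All 8 are in maternally methylated loci: the 3 Mcts2 sites, the Gnas site, the 3 Peg12 sites and 1 site in an intron of Trappc9. In corpus 1 site lay above and 0 below (7.1 and 3.98% of the table), and in cauda also 1 and 0 (2.85 and 2.49%), in both cases the Trappc9 site that was also above in caput. Without corpus replicate 1, this site and 1 Zrsr1 site lay above and 0 below, where 12.2 and 7.12% of the table did.

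The mean over the 22 sites of maternally methylated loci was 19.3, 19.9 and 20.8% in testicular replicates 1, 2 and 3. In caput it was 43.5, 24.3 and 28.6%, in corpus 23.7, 22.7 and 24.4% and in cauda 19.3, 17.1 and 20.2%. All caput and corpus samples lay above the testicular range, while the cauda samples overlapped it. As means of 3 samples with their SD, these are 20 ± 0.760% in testis, 32.1 ± 10.1% in caput, 23.6 ± 0.886% in corpus and 18.9 ± 1.58% in cauda. The caput difference from testis was 12.1 points, and 6.45 points without caput replicate 1. When the reads of the sites were pooled, which gives deep sites more weight, the corpus difference changed from 3.64 to -2.48 points.

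The mean over the 8 sites of paternally methylated loci was 22.0, 24.1 and 23.5% in testis, 27.4, 25.7 and 25% in caput, while corpus had 26.4, 22.4 and 23.9% and cauda 24.4, 24.3 and 27.5%. All caput and all cauda samples lay above the testicular range here, cauda replicates 1 and 2 by little, while the corpus samples overlapped it. The caput minus testis difference was 2.81 points, and over the sites with at least 20 reads in every sample it was -1.70 points. Over all sites of the table the samples averaged 47.8, 49.0 and 48.6% in testis, 53.3, 50.9 and 50.8% in caput, while corpus had 48.1, 50.6 and 49.3% and cauda 48.5, 48.7 and 48.0%. All caput samples lay above the testicular range in this mean too, while the corpus and cauda samples overlapped it. The median difference between the caput and testicular means was 5.61 points over the maternal, 0.748 points over the paternal and 0 points over all sites. In corpus these medians were 0.740, 0.815 and 0 points, and in cauda -1.09, 0 and 0 points.

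**Figure D1:**
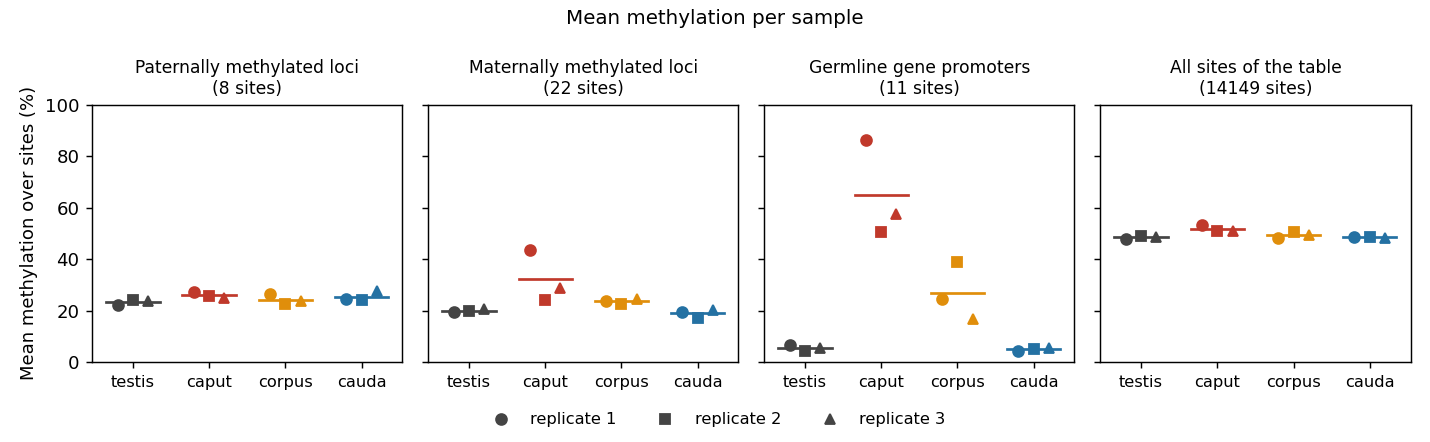
Mean methylation in percent (vertical axis) of each sample over the sites of paternally methylated loci, maternally methylated loci, germline gene promoters and the whole table. Each point is 1 sample, its shape gives the replicate, and the bar is the mean of the group; caput replicate 1 is the highest sample in the maternal and germline promoter panels, at 43.5 and 86.2%.

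Among the paternally methylated loci, H19 gives rise to a long non-coding RNA of fetal tissues and shares its control region with Igf2, which encodes an insulin-like growth factor. The H19 site lies at chr7:142575817 (GRCm38), in an exon of H19 and 721 bp from the nearest annotated transcript start. No other site of the table fell in its window, so the control region upstream was not covered. The site is shown with the bases around it, from the GRCm38 RefSeq assembly, as a site that is highly methylated in all samples. Here and below the measured CpG is in capitals.
H19, chr7:142575797-142575837, plus strand: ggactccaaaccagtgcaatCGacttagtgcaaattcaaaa

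Methylation at the H19 site was 97.8, 96.7 and 92.8% in testicular replicates, from 167 to 270 reads. It was 87.1, 93.2 and 93.7% in caput and 97.1, 94.1 and 89.3% in corpus replicates. In cauda it was 98.9, 98.4 and 97.1%. The samples of every segment overlapped the testicular ones. The lowest value, in caput replicate 1, had an interval from 81.2 to 91.3%. This lay below the intervals of testicular replicates 1 (95.2 to 99.0%) and 2 (93.2 to 98.4%) and overlapped that of testicular replicate 3 (87.9 to 95.8%). The difference of the pooled caput reads from testis was -4.83 points (95% interval -7.84 to -2.05; adjusted p = 0.00205 by logistic regression), under the 25 points needed for a call, and the exact permutation p was 0.3. Without caput replicate 1 it was -2.76 points, with an adjusted p of 0.134 by logistic regression.

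Igf2 had 2 sites 10 bases apart, at chr7:142664377 and chr7:142664387, in an intron of Igf2 and of the antisense gene Igf2os. They are shown because both CpGs of the pair were read.
Igf2, chr7:142664357-142664407, plus strand: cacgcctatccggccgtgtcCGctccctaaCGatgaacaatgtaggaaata

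The first CpG in capitals, chr7:142664377, was methylated at 5.56, 0 and 0% in testis, 38.1, 15.7 and 0% in caput, while corpus had 0, 0 and 9.68% and cauda 0, 0 and 0%. The other CpG was at 0% in all testicular and corpus samples, at 38.1, 11.8 and 0% in caput and at 0, 0 and 29.2% in cauda. At both, caput replicate 1 was the highest sample, and caput replicate 3 was at the testicular level. Coverage ran from 12 to 51 reads, so that 0% in corpus replicate 1 allows up to 25% and 0% in testicular replicate 3 up to 7.5% at the first CpG. The pooled caput difference there was 15.3 points (95% interval 7.27 to 24.0), and the exact permutation p over samples was 0.4 at each of the 2 sites. The difference without caput replicate 1 was 9.34 points at the first CpG and 7.89 points at the other.

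At the other paternal loci the groups overlapped. Rasgrf1, which encodes an exchange factor for Ras, had 4 sites between 774 and 807 bp upstream of its start, outside its germline DMR further upstream. Over these 4 sites the 12 samples averaged between 0 and 3.57%. Zdbf2, which encodes a zinc finger protein, had 1 site downstream of the gene at chr1:63319320, with 72.7, 92.2 and 95.3% in testis, 55.9, 84.8 and 92% in caput, while corpus had 100, 81.3 and 90% and cauda 96.5, 95.7 and 93.5%. Caput replicate 1 was the lowest of these 12 values, and the groups overlapped.

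Among the maternally methylated loci, Mcts2 is a retrogene, a copy made from a spliced RNA, that sits in an intron of H13, which encodes a signal peptide peptidase. Its promoter is a germline DMR, and the 3 sites lie there, 24, 36 and 42 bp from the transcript start, in an untranslated region of Mcts2. They are shown because all 3 were called in caput and they are the called sites that lie in a germline DMR.
Mcts2, chr2:152687054-152687083, plus strand: aatcaCGtgaggatcagCGcaaaCGtgggg

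At the Mcts2 CpG nearest to the start, chr2:152687059, methylation was 0, 2.5 and 5.41% in testicular replicates. It was 73.3, 21.7 and 19.4% in caput, while corpus had 0, 10.3 and 0% and cauda 0, 0 and 4%. All 3 caput samples lay above the testis, replicate 1 far above the others, and the corpus and cauda samples overlapped the testis. Coverage was low, with 15 reads in caput replicate 1 (95% interval 48.0 to 89.1%) and 13 in corpus replicate 1, where 0% allows up to 23.1%. In pooled reads caput was 26 points higher than testis (95% interval 16.5 to 35.9; adjusted p = 3.04e-07 by logistic regression), with an exact permutation p of 0.1 over samples and an adjusted p of 0.245 by edgeR.

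The middle Mcts2 CpG, at chr2:152687071, had 0, 2.63 and 5.71% in testis, 68.8, 23.1 and 15.6% in caput, while corpus had 0, 10.3 and 0% and cauda 0, 0 and 4%. The last of the 3, at chr2:152687077, had 0, 0 and 5.71% in testis, 62.5, 23.1 and 15.6% in caput, while corpus had 0, 6.90 and 0% and cauda 0, 0 and 4%. Neighbouring sites share reads, so the 3 are not independent. The caput differences of the middle and the last were 25.8 and 25.5 points in pooled reads, close to the threshold of 25. Without caput replicate 1 the differences at the 3 sites were 17.9, 16.7 and 17.7 points, and none of the 3 was called. Without testicular replicate 1 the differences were 24.97, 24.63 and 24.77 points, just under the threshold, so none was called, and without testicular replicate 2 the last site had 24.4 points and was not called.

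Zrsr1, a retrogene related to a splicing factor in an intron of Commd1, which encodes a protein of copper metabolism, is the other locus with sites at a maternal germline DMR promoter. Its 4 sites lie on the minus strand between chr11:22972941 and chr11:22972982, in an untranslated region of Zrsr1 and an intron of Commd1. The site nearest to a Zrsr1 start, at 233 bp, is shown as the one given in every sample.
Zrsr1, chr11:22972968-22972997, minus strand: tcaccggcgtgtttgCGcaatgcagcaacc

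At this CpG the testicular replicates had 0, 0 and 8.70%, the caput replicates 14.3, 0 and 11.1%, the corpus replicates 0, 4.17 and 16.7% and the cauda replicates 0, 0 and 4.35%. All groups overlapped, and with 13 to 32 reads a 0% allows up to 23.1% in the shallowest sample. Of the other Zrsr1 sites, chr11:22972947 reached 64.3% in caput replicate 1, chosen for mention after its values were seen, and its caput difference of 15.7 points in pooled reads was 0.840 points without that replicate. The remaining Zrsr1 values in all samples were at most 18.2%. At Zrsr1 the caput samples thus overlapped the testis, at low coverage; whether it differed from Mcts2 in this was not tested.

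Gnas encodes the stimulatory G protein alpha subunit, and Nespas is an antisense RNA across its imprinted promoters. They share 1 site at chr2:174287639, in an intron of both genes. It is shown as the site that was called with and without caput replicate 1 and that also stands in the authors' caput list.
Gnas, chr2:174287619-174287659, plus strand: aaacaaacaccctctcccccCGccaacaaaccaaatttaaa

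Testicular replicates 1, 2 and 3 had 0, 2.27 and 10.4% at the Gnas site. Caput replicates had 57.4, 13.8 and 47.4%, corpus replicates 8.70, 9.76 and 19.4% and cauda replicates 11.1, 5 and 7.69%. The caput samples lay above the testis, with replicate 2 near it and replicates 1 and 3 well above, and the corpus and cauda samples overlapped the testis. Coverage was 54 to 58 reads in caput and 32 to 48 in testis, and the interval of caput replicate 2 (7.16 to 24.9%) overlapped that of testicular replicate 3 (4.53 to 22.2%). The pooled caput reads were 34.2 points higher (95% interval 25.4 to 42.2; adjusted p = 3.87e-12 by logistic regression), the exact permutation p was 0.1 and edgeR's adjusted p was 0.222. Without caput replicate 1 the difference was 25.6 points (adjusted p = 4.79e-07 by logistic regression).

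Peg12, a retrogene of the cluster around Snrpn whose product is related to regulators of Wnt signalling, had 3 sites within 14 bases of its untranslated region. They are shown to place the 3 CpGs, which differed in level although they lie next to each other.
Peg12, chr7:62463235-62463264, plus strand: agagtctgCGCGgaattgtagCGaccaggt

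The first Peg12 CpG in this sequence, chr7:62463243, had 0, 0 and 1.35% in testis. It had 62.7, 22.2 and 21.9% in caput, 47.8, 3.95 and 0% in corpus and 0% in all 3 cauda samples, whose 200 pooled reads allow up to 1.5%. All caput samples lay above the testis, and in corpus replicate 1 was high while replicate 3 was at 0%. The pooled caput difference was 36.8 points (95% interval 28.8 to 45.1; adjusted p = 1.47e-22 by logistic regression), the exact permutation p was 0.1 and edgeR's adjusted p was 0.0433, over the threshold of 0.01. The difference was 21.6 points without caput replicate 1, and the site was not called then. The pooled corpus difference was 9 points, and without corpus replicate 1 it was 1.94 points.

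The second Peg12 CpG, chr7:62463245, had 0% in all testicular and cauda samples, 33.3, 13 and 15.6% in caput and 22.7, 4 and 0% in corpus. Its 217 testicular reads allow up to 1.38%. The third, chr7:62463256, had 0, 0 and 3.95% in testis, 10, 9.43 and 15.6% in caput, 0, 4 and 0% in corpus and 0% in cauda. At both the caput samples lay above the testis, by 21.2 and 9.72 points in pooled reads, under the 25 points of a call. Without caput replicate 1 these differences were 13.95 and 10.4 points, and without caput replicate 2 the second CpG was called. The level was lower at each next CpG in caput replicates 1 and 2 and in corpus replicate 1, while in caput replicate 3 the second and the third were equal at 15.6%.

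**Figure D2:**
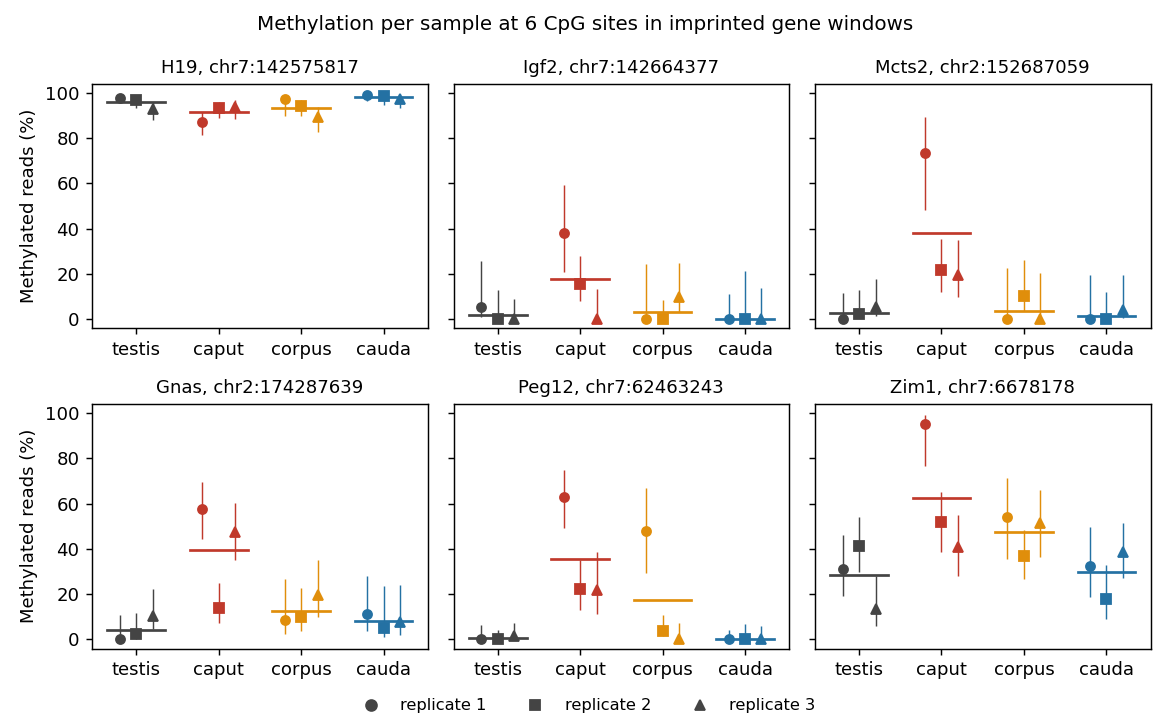
Methylation in percent (vertical axis) of each sample at 1 site each of H19, Igf2, Mcts2, Gnas, Peg12 and Zim1, by group. Points are samples with 95% Wilson intervals, shapes give the replicate and bars the group mean; at the Mcts2, Gnas and Peg12 sites all caput samples lie above all testicular samples, while H19 stays at 87.1% or higher throughout.

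The Zim1 site was singled out after its values were seen, as the imprinted site with an intermediate level in the testis. Zim1 encodes a zinc finger protein of the Peg3 locus, and its site at chr7:6678178 lies in the coding sequence. It had 31.0, 41.4 and 13.5% in testis, 95, 51.9 and 40.8% in caput, while corpus had 53.8, 37.0 and 51.3% and cauda 32.3, 17.9 and 38.6%. Caput replicate 3 lay within the testicular range, and so did corpus replicate 2, so the groups overlapped. The pooled caput difference was 23.9 points (95% interval 11.8 to 35.0), under the threshold of 25, with an exact permutation p of 0.2. It was 15.9 points without caput replicate 1, and without caput replicate 2, caput replicate 3 or testicular replicate 2 the site was called.

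Of the remaining maternal sites, those above 50% in the testicular mean were above 50% in every sample. Trappc9, which encodes a subunit of a vesicle tethering complex and holds the imprinted RNA gene Peg13 in an intron, had 3 intronic sites between 76 and 100% in all samples. At the most deeply read of them, chr15:72832670, the testicular mean was 94.3 ± 1.86% (SD, n = 3) and the caput mean 100 ± 0%. The means were 99.8 ± 0.418% in corpus and 98.6 ± 1.24% in cauda. This site lay above the testis in every segment, by 5.61, 5.31 and 4.14 points in pooled reads of caput, corpus and cauda, each far under the 25 points of a call, with an exact permutation p of 0.1 each. The adjusted p by edgeR was 0.0153 in caput, over the threshold of 0.01, and 0.416 in corpus. In cauda the unadjusted p by edgeR was 0.0589. At chr15:72968660, named after its values were seen, the testicular replicates had 100, 97.7 and 100% and the caput replicates 100, 76 and 90.2%. Its pooled caput difference was -9.21 points (adjusted p = 0.0027 by logistic regression), and -14.4 points without caput replicate 1 (adjusted p = 0.000283 by logistic regression), under the 25 points of a call. Peg10, a gene of the placenta derived from a retrotransposon, had 1 site in its coding sequence between 54.5 and 100%, highest in corpus and lowest in cauda by group mean, with the groups overlapping the testis.

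The other maternal sites were low throughout. The 4 sites at the Trappc9 promoter were at 7.14% or less in all samples. The 2 sites in the windows of Nnat, which encodes neuronatin, and of Blcap, in which Nnat lies, were at 9.52% or less. The lowest coverage at these 6 sites was 26.

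By median, the sites low in the testis lay in sequence richer in CpG, but the ranges overlapped. Neighbouring sites share most of the sequence around them, and the difference was not tested. Of the 30 sites, 23 were under 20% in every testicular sample, 6 were above 50% in the testicular mean and 1, that of Zim1, was between. In the 100 bases on either side of the site, the low sites had a median of 11 CpGs (5 to 17) and the high sites 4.5 (4 to 9). In the whole table the medians were 9 for the 5994 low and 5 for the 6981 high sites, so the medians of the imprinted sites had the same order as those of the table. The called Mcts2 sites had 16 or 17 CpGs in this window, the Peg12 site 11 and the Gnas site 5, so they had no common density.

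The deposited lists of differentially methylated sites add positions that the count table does not hold. They contain 15 sites in these windows for caput, 7 for corpus and 1 for cauda, of 5546, 2228 and 227 listed sites. These are 22 distinct positions near 14 genes, and 1 of them, the Gnas site at chr2:174287639 in the caput list, has counts for each sample. Of the others the position alone was used.

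In the caput list, the paternal loci have 2 positions in an exon of the antisense gene Igf2os near Igf2, which lie at chr7:142669634 and chr7:142669639, and 1 at chr12:109585977 near Rtl1, a placental gene derived from a retrotransposon. The maternal loci have 1 each at chr11:22973947 in the coding sequence of Zrsr1, at chr11:12038677 in an untranslated region of Grb10, which encodes an adaptor of growth factor receptors, and at chr7:6711585 in the coding sequence of Peg3, which encodes a zinc finger protein. Further ones lie at chr2:152675185 in an intron of H13, at chr2:157571781 upstream of Blcap, at chr15:73044595 in an intron of Trappc9 and at chr7:142969817 upstream of Ascl2, a transcription factor gene of the placenta. Kcnq1, a potassium channel gene, has a pair in an intron, at chr7:143340783 and chr7:143340785. Gnas has, beside the site with counts, 2 in an untranslated region at chr2:174328752 and chr2:174328771.

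In the corpus list, chr11:22973947 in Zrsr1 appears again, and Grb10 has another position, chr11:12038672, 5 bases from the caput one. The others lie at chr2:174300082 and chr2:174300094 in the coding sequence of Gnas, at chr15:72809794 and chr15:72809804 in Peg13 and at chr15:73058092 in the coding sequence of Trappc9. The cauda list has 1 position, chr7:6707878, in the coding sequence of Peg3. Of the genes without a site in the count table, 6 had a listed position, namely Kcnq1, Ascl2, Grb10, Peg3, Rtl1 and Peg13, and 28 had neither.

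A list of 32 other imprinted genes had sites at 5 of them, 15 in all. Of these, 3 were called higher in caput, 1 in corpus and 0 in cauda, all in 1 gene, and 0 lower, where 16.8, 3.96 and 0.233% of the table were called in either direction. The caput and corpus counts were the same without replicate 1, where 11.9 and 4.48% of the table were called. edgeR called 0 in each segment, with 2, 0 and 0 at an unadjusted p under 0.05 in caput, corpus and cauda, against 15.9, 7.53 and 2.93% of the table. The median difference over the 15 sites was 0.739 points in caput, 1.04 in corpus and 0 in cauda, where all sites of the table had 0. The mean over the 15 sites was 36.1, 33.8 and 35.3% in testis and 47.5, 41.8 and 42.8% in caput. In corpus it was 40.1, 41.9 and 36.8%, so all caput and all corpus samples lay above the testis in this mean, although the median difference was small. The called sites are in Ctnna3, which encodes a catenin and whose 6 sites averaged 53.3% in testis, 72.4% in caput and 63.5% in corpus, while the 3 sites of Gab1, an adaptor of growth factor signalling, averaged 2.50% in testis and 0% in caput.

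A list of 20 factors that establish, protect or remove imprints had 18 sites at 7 of the genes. In caput 4 sites of 2 genes were called higher and 0 lower, and 4 without replicate 1, where 16.8 and 11.9% of the table were called. edgeR called 1 in caput (0.304% of the table), with 6 at an unadjusted p under 0.05 (15.9%). In corpus and in cauda 0 were called, where 3.96 and 0.233% of the table were, and edgeR called 0 with 3 and 1 at an unadjusted p under 0.05 (7.53 and 2.93%). The median difference was 0.00131 points in caput, 0.241 in corpus and -0.292 in cauda, where all sites of the table had 0. The mean over the 18 sites was 44.0, 45.0 and 43.6% in testis and 57.4, 51.1 and 52.5% in caput. In corpus it was 44.5, 47.5 and 47.9%. All caput samples lay above the testis in this mean too, although the median difference was near 0, and the corpus samples overlapped the testis. So did the cauda samples, at 44.0, 44.1 and 43.3%. The called sites are in Dppa3, a maternal factor of the zygote, whose 3 sites averaged 6.58% in testis, 35.9% in caput, 15.7% in corpus and 11.2% in cauda, with all samples of the 3 segments above the testis, and in Tet1, which oxidises methylcytosine, whose 5 sites averaged 55.4, 76.9, 61.1 and 52.5%.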

How the data were processed

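RRBS of spermatozoa was deposited. By the submitters' processing notes, the authors trimmed reads with Trim Galore 0.4.1, aligned them to GRCm38 with Bismark 0.16.1 and compared segments in methylKit. They deposited raw counts of all, methylated and unmethylated reads per CpG site and sample; all 36 columns were used and 0 per-sample columns were left out. The other deposited columns, methylation differences with p and q values of the authors' comparisons in lists of sites, were not used, nor were the files of regions; of the site lists the positions were read. For caput and for corpus these lists were made by the authors from replicates 2 and 3.

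Gene positions are those of GENCODE M21 (GRCm38), and all 14149 sites lie on a CpG of the RefSeq sequence. Samples were grouped by their labels. The members and the gene lists were chosen with earlier results of these data known. Sites were given in every sample by rule: per locus the site nearest to the start of a gene whose promoter holds the germline DMR (within 2 kb), the sites of H19 and Igf2, and every called site, at most 25. Sites named outside it are said to be so or belong to the account of all members.

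The logistic regression (likelihood-ratio test) and both thresholds are those of the authors' methods, with the Benjamini-Hochberg adjustment in place of theirs, no overdispersion term and all labelled replicates. It does not use the spread between samples, and 1 read moves a site by several points at the lowest coverages. Intervals of differences are Newcombe intervals at 95%. Means over members have no test. The means over the other gene lists and their named genes were added after the data were seen. The logistic regression, edgeR and limma were tested on simulated data, where limma recovered fewer of the changed sites than the others. The simulated samples of a group shared the same level at each site and differed by counting error only. The simulation therefore cannot tell how these tests behave under the spread between real samples. The alternatives were edgeR 4.0.16 (adjusted p and the same difference), limma 3.58.1 on the log2 ratio of methylated to unmethylated percent with a pseudo-percent of 1, a replicate block, at least 20 reads, a difference above 40 points, an adjusted p under 0.001, gene bodies alone, 20 kb windows, summed strands, pooled reads and leaving out each replicate. Python 3.11.15, numpy 2.4.6, pandas 2.3.3, scipy 1.17.1, matplotlib 3.10.9, pysam 0.24.0, samtools 1.23.1 and R 4.3.3 were used.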

Additional observations from a re-analysis of the deposited data

How the results depend on the processing

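The 5 imprinted sites called in caput (16.8% of the table) became 0 with edgeR (0.304%), 0 with limma (0.0848%), 0 at a difference above 40 points (8.76%), 2 of 20 sites with at least 20 reads in every sample (17% of such sites of the table were called) and 11 of 37 sites with windows of 20 kb (16.8% of the table); the 6 added there are 3 near Sgce, higher in caput, and 3 near Mest, lower in caput. Leaving out 1 replicate gave from 1 (without caput replicate 1, 11.9% of the table) to 8 (without caput replicate 2, 19%), with 2 without testicular replicate 1 (16.9%). The count stayed at 5 at an adjusted p under 0.001 (16.6%), in gene bodies alone (5 of 25 sites; 16.8%), with a replicate block (16.8%) and with summed strands (2374 called in the table). The counts of 0 in corpus and cauda stayed at 0 under every alternative run, where 0 to 4.83% of the table were called in corpus and 0 to 0.445% in cauda.

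The replicate block changed no call of a named site, and the correlations of same-numbered deviations from the group means ran from -0.121 to 0.0405. Of the 9 epididymal samples, 2 correlated best with the testicular sample of their own number, so the numbers are not used as pairs.

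For the maternal loci, pooled reads gave differences from testis of -2.48 points in corpus and -5.31 in cauda in place of 3.64 and -1.13, and 20 kb windows gave 2.74 in corpus. For the paternal loci, pooled reads gave 1.33 points in caput, -3.77 in corpus and -0.915 in cauda in place of 2.81, 1.01 and 2.17, at least 20 reads gave -1.70 in caput and gene bodies alone, with 3 sites, gave 9.41 in caput, -0.306 in corpus and 3.42 in cauda. The cause of these shifts was not tested. Without single replicates the maternal caput difference ran from 6.45 (without caput replicate 1) to 16.1 points (without caput replicate 2) and the paternal corpus difference from -0.0625 (without corpus replicate 1) to 1.92. The maternal cauda difference ran from -1.79 (without cauda replicate 3) to -0.254 (without cauda replicate 2). For the paternal loci in cauda it ran from 1.13 (without cauda replicate 3) to 2.73 (without cauda replicate 2).

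Uncalled differences changed sign as follows. In corpus the log2 ratio of limma was -0.314 and -0.357 at the Mcts2 sites 152687059 and 152687071. Leaving out single replicates gave corpus differences from -2.83 (without corpus replicate 2) to 4.31 points at 152687059, from -2.97 (without corpus replicate 2) to 4.35 at 152687071 and from -2.04 (without corpus replicate 2) to 3.57 at 152687077. At Zrsr1 they ran from -1.14 (without corpus replicate 3) to 7.27 and at the first Igf2 site from -1.19 (without corpus replicate 3) to 5.79. In cauda, Zrsr1 ran from -4.13 to 1.43 (without testicular replicate 3), and the last Mcts2 site from -2.04 to 1.54 (without testicular replicate 3), with 0.523 without cauda replicate 2. Corpus replicate 1 had a median of 25 reads at the 30 sites.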
